A study of Drosophila melanogaster with 3 samples.

Results

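The small heat shock genes of cytological region 67B are a group of Drosophila melanogaster genes on the left arm of chromosome 3. The 6 listed members, Hsp67Bc, Hsp22, Hsp26, Hsp67Ba, Hsp23 and Hsp27, were taken by name from the annotation of genome build dm6. They are 6 of 18277 annotated genes and of 13968 protein-coding genes on the main chromosomes. Their bodies span 14.2 kb, and every call with its summit in that stretch or within 5000 bp of it was collected, a region of 24.2 kb (3L, 9366511 to 9390694).

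The data come from chromatin immunoprecipitation and sequencing (ChIP-seq) of whole white prepupae, males and females together, of 1 transgenic line. The line makes CG8632 (ZnT49B, by its name a zinc transporter) fused at its C-terminal end to enhanced GFP, and an antibody to GFP was used on every sample. There was 1 group of 3 biological replicates, and control samples were not analysed here. Chromatin was sheared by sonication to 200 to 800 bp, the age is listed as unknown, and no heat treatment is mentioned in the labels. Because whole animals were used, a peak cannot be assigned to a tissue, and whether recovery of DNA depended on the fusion protein was not tested.

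Small heat shock proteins share an alpha-crystallin domain and hold unfolding proteins in a soluble state without using ATP, so that the ATP-driven chaperones can refold them. Heat activates their genes through heat shock factor, which binds heat shock elements, inverted repeats of the unit GAA. GAGA factor, which keeps promoter chromatin accessible, binds GAGA repeats at several heat shock promoters. Without heat, several genes of this cluster are also switched on by the steroid hormone ecdysone around the end of larval life, the time at which these animals were taken.

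The 3 promoters below are shown because they hold the strongest peak of the cluster, the second strongest, and a gene with the same kinds of elements but no peak in the thresholded set. All are from the Release 6 genome sequence (RefSeq), written 5′ to 3′ along the strand of the gene and ending at the base before its start. Hsp27 is chr3L:9383763-9384062 on the plus strand. Hsp26 is chr3L:9377428-9377705 on the minus strand, which is the whole peak. Hsp23 is chr3L:9381582-9381881 on the plus strand. Capitals mark matches to GAANNTTC or TTCNNGAA (2 units of a heat shock element), GAGAG or its complement CTCTC, and TATAAA or its complement TTTATA.
Hsp27 promoter: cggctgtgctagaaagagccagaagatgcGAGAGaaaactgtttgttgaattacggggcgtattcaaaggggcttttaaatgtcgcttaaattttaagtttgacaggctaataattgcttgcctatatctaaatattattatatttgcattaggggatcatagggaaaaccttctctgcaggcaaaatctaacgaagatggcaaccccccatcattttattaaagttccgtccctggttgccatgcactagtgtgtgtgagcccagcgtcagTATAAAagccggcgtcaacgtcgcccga
Hsp26 promoter: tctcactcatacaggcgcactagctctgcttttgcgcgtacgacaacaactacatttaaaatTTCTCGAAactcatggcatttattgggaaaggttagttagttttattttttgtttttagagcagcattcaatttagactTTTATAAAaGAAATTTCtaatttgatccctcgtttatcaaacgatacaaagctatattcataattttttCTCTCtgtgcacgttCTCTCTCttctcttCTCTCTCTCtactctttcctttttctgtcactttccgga
Hsp23 promoter: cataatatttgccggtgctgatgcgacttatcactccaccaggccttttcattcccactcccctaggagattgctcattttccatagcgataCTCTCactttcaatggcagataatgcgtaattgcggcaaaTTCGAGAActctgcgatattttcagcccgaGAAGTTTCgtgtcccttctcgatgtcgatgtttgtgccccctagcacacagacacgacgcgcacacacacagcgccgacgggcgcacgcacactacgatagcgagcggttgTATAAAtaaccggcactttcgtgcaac
The summit of the Hsp27 peak is base 148 of the 300 shown, in a stretch without capitals. The peak begins upstream of the bases shown. That part holds its only heat shock element match, centred 335 bp upstream of the start, and GAGAG matches centred 315 and 313 bp upstream. The summit of the Hsp26 peak is base 175 of 278, between the second heat shock element match and the CTCTC runs. The Hsp26 stretch ends before the outer of the annotated starts of the gene. It leaves out a TATAAA match centred 25 bp and a heat shock element match centred 45 bp upstream of the inner start. The TATAAA matches shown are centred 132 and 134 bp upstream of the outer start. The Hsp26 stretch has a GC content of 34.9%, the Hsp27 stretch 43.3% and the Hsp23 stretch 50.7%.

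Part of the cluster carried peaks of the set thresholded by irreproducible discovery rate (IDR), a measure of how well calls repeat between replicates. An IDR peak lay within 500 bp of a transcription start of Hsp27, Hsp26 and Hsp22, 3 of 6 members, and at none of Hsp23, Hsp67Ba and Hsp67Bc. Among all protein-coding genes the share was 17.0%. The region had these 3 IDR peaks and no other, and all 3 were at a member. The genome was also cut into 5684 windows of the region's length. Of these, 16.7% held 3 IDR peaks or more, the mean was 1.14 and 3042 held none, so the number of peaks alone does not set the region apart. The relaxed lists, which keep background calls on purpose, had 12 calls in the region for the pooled reads and 13, 8 and 16 in replicates 1 to 3. Relaxed calls were not counted in the other windows, so whether these numbers are usual was not tested.

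**Figure D1:**
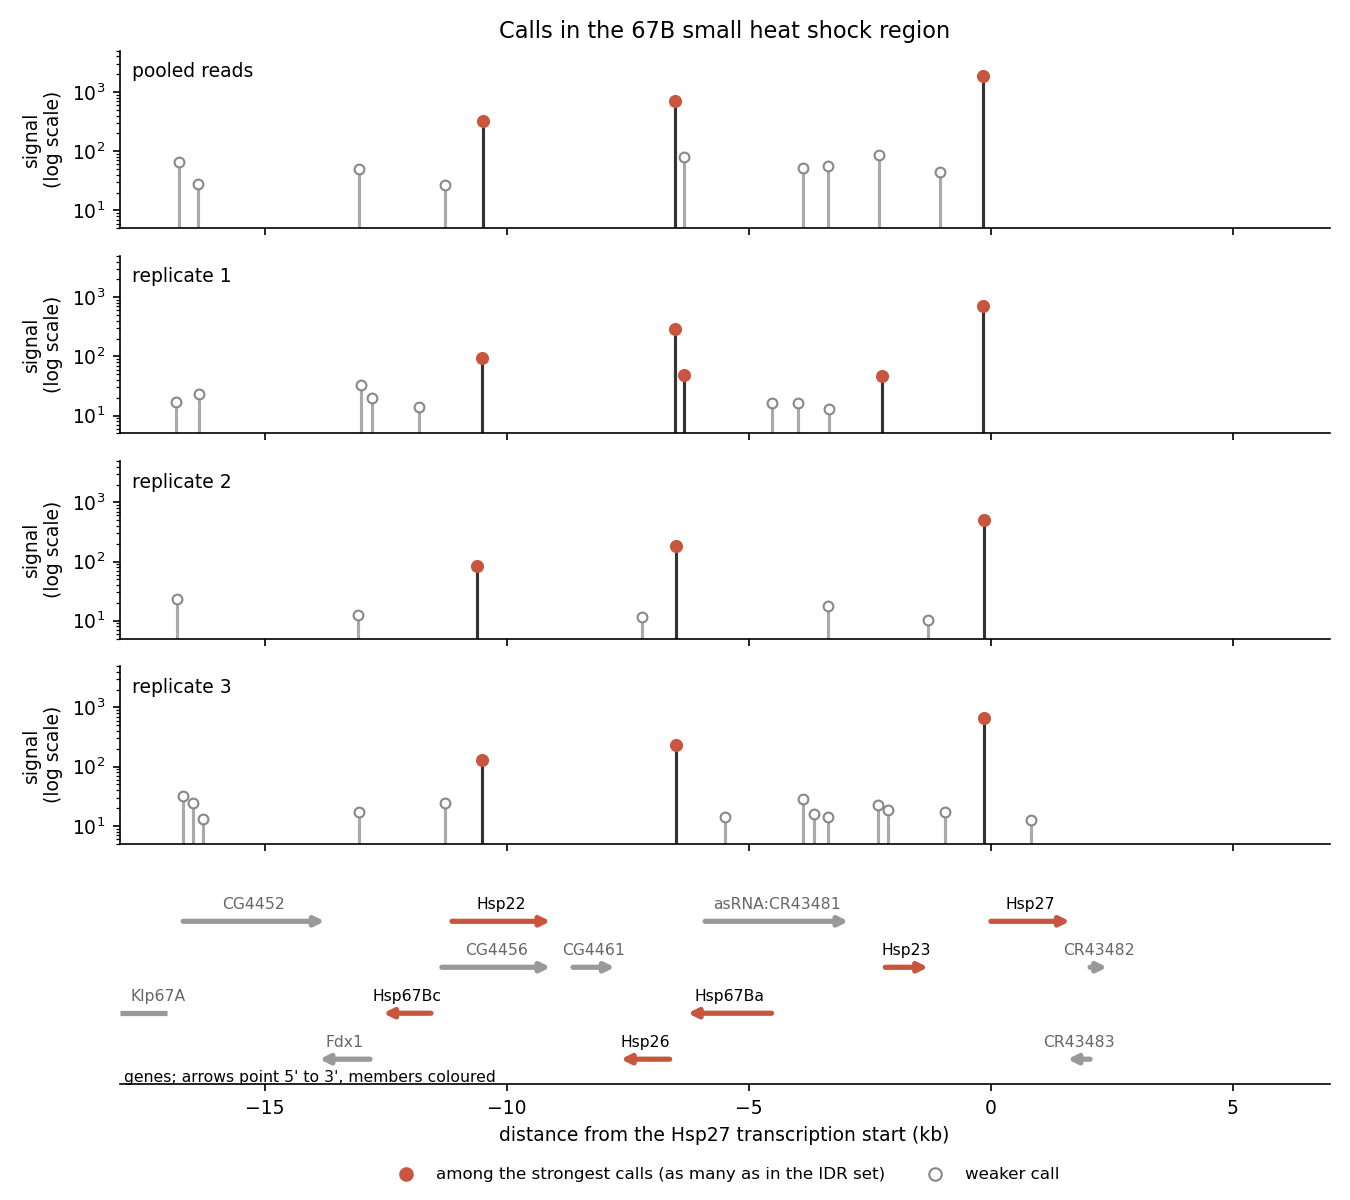
Signal of every call in the region (log axis) against distance of its summit from the Hsp27 start in kb, for the pooled reads and each replicate, with the genes below. Filled points are calls among the 6469 strongest of their list, the number of peaks in the IDR set. The 3 tallest calls stand at Hsp22, Hsp26 and Hsp27 in every panel and rise in that order.

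Hsp27 encodes a small heat shock protein found in the nucleus. Its peak (FBgn0001226; dm6 3L, 9383707 to 9384095) had a signal of 719 in replicate 1, 500 in replicate 2 and 675 in replicate 3, a mean of 631 ± 116 (SD, n = 3). Signal is the value that the authors' peak caller gave each call, with a scaling between libraries that is not stated. Replicate 2 was the lowest, and it was also the lowest for the other members with an IDR peak. The peak ranked 17, 27 and 18 among the 30000, 29322 and 30000 calls of the replicates. In the IDR set its signal was 1872, which is rank 20 of 6469 and 9.89 times the median of that set. Of the 2278 IDR peaks at a transcription start it was number 12.

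The Hsp27 peak was placed alike in the 3 replicates. Its summit lay 153 bp upstream of the only annotated start, in intergenic sequence, and the replicate summits fell within 15 bp of each other, at 167, 152 and 152 bp upstream. The peak was 389 bp wide and reached across the start. The 100 bp on either side of the summit had a GC content of 38.8%, just above the upper quartile of all IDR summits (38.3%, median 33.3%).

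Hsp26 encodes a cytosolic small heat shock protein. Its peak (FBgn0001225; 3L, 9377428 to 9377705) had a signal of 291, 186 and 236 in replicates 1, 2 and 3, a mean of 238 ± 52.2 (SD, n = 3). Its ranks were 305, 341 and 395, and in the IDR set it was rank 339 with 708. The gene is annotated with starts 52 bp apart, and the summit lay 104 bp upstream of the outer and 156 bp upstream of the inner one. The replicate summits were within 29 bp of each other. A weaker call 306 bp upstream of the outer start overlapped the peak in the pooled list (79.1, rank 8916) and in replicate 1 (48.6, rank 5600). It was not listed in replicates 2 and 3.

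Hsp22 encodes a small heat shock protein of the mitochondrion. Its peak (FBgn0001223; 3L, 9373507 to 9373641) had a signal of 94.9, 84.0 and 130 in replicates 1, 2 and 3, a mean of 103 ± 24.0 (SD, n = 3), and ranks of 2373, 1472 and 1299. In the IDR set it had 326, rank 1492. This peak is less simply a promoter peak than the others. The gene has an upstream start, in a transcript shared with CG4456, and a downstream start of its own. The summit lay between them, 631 bp after the former and 435 bp before the latter, in sequence annotated both as 3′ UTR of CG4456 and as 5′ UTR of Hsp22. In replicates 1 and 3 the summit was 450 and 447 bp upstream of the downstream start. In replicate 2 the overlapping call had its summit 517 bp from the nearest start, so it did not count within the 500 bp limit. With a limit of 250 bp, or with only the outermost start of each gene, Hsp22 had no IDR peak and the count was 2 of 6. The share of all protein-coding genes was 12.4% at that limit and 14.4% with the outermost starts.

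The order Hsp27, Hsp26, Hsp22 held in every replicate, and the ranges of the 3 peaks did not overlap. The signal of Hsp27 was 2.47, 2.68 and 2.86 times that of Hsp26, a mean of 2.67 ± 0.193 (SD, n = 3). It was 7.57, 5.95 and 5.20 times that of Hsp22. Hsp26 was 3.06, 2.22 and 1.82 times Hsp22. These ratios are taken within a replicate, so the scaling between libraries drops out. An exact test on 3 paired values cannot go below p = 0.25, and none was run. Divided by the median of the 6469 strongest calls of the same replicate, Hsp27 was at 9.52, 10.4 and 9.59. On that scale Hsp26 was at 3.85, 3.89 and 3.36, and Hsp22 at 1.26, 1.75 and 1.85. The deposited −log10 significance of all 3 peaks was the highest value of its list in every replicate (4.10, 3.81 and 3.82), so it cannot order them.

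**Figure D2:**
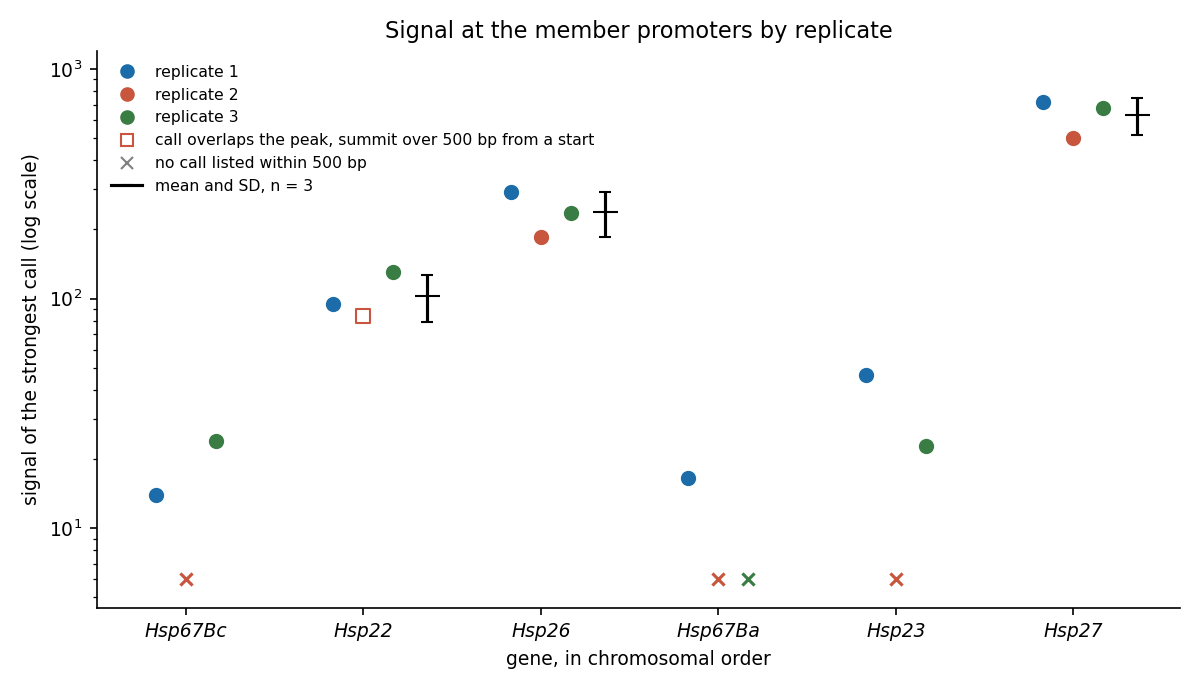
Signal of the strongest call within 500 bp of a start of each member (log axis), by replicate, in chromosomal order. The open square is the replicate 2 call that overlaps the Hsp22 peak with its summit beyond 500 bp, crosses are replicates with no listed call, and bars are mean and SD (n = 3). Hsp27, at 500 to 719, lies above all others, and Hsp67Bc, Hsp67Ba and Hsp23 each lack a call in replicate 2.

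Hsp23 (FBgn0001224; 3L, 9381882 to 9382765) encodes another cytosolic small heat shock protein and is the neighbour of Hsp27 on the same strand. It had no IDR peak, and its calls differed between replicates. The pooled list had a call 125 bp upstream of the start with a signal of 86.1, rank 8145, which is 82.2% of the lowest signal in the IDR set (104.8). Replicate 1 had a call 70 bp upstream with 46.4 (rank 5908), among its 6469 strongest. Replicate 3 had one 154 bp upstream with 22.9 (rank 13164). Replicate 2 had none within 500 bp, and its nearest call was 887 bp downstream at rank 28931. The pooled Hsp27 signal was 21.7 times that of Hsp23.

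Hsp67Ba and Hsp67Bc had no call among the 6469 strongest of any list. Hsp67Bc (FBgn0001229; 3L, 9371511 to 9372497), whose protein is linked to autophagy together with the co-chaperone Starvin, had signals of 14.0 in replicate 1 (rank 22174, 248 bp downstream) and 23.9 in replicate 3 (rank 12513, 292 bp upstream). Replicate 2 listed none within 500 bp. The pooled call had 27.4 and was rank 29752 of 30000. The replicate 3 and pooled summits lay nearer to other starts than to that of Hsp67Bc. They were 67 and 65 bp downstream of the CG4456 start, and 142 and 144 bp upstream of the upstream Hsp22 start. The replicate 1 summit was in coding sequence of Hsp67Bc. Hsp67Ba (FBgn0001227; 3L, 9377802 to 9379534), the longest of the members at 445 codons against 174 to 213 for the others, had a single call of 16.6 in replicate 1 (rank 18293, 14 bp upstream). That summit also lies in an exon of asRNA:CR43481, which runs antisense to Hsp67Ba, and ChIP signal has no strand. Neither the pooled list nor replicates 2 and 3 had a call within 500 bp of it.

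Counted over replicates, a call among the 6469 strongest lay at a start in every replicate for Hsp27 and Hsp26, 2 of 6, against 12.6% of protein-coding genes. With calls of any rank the count was again 2 of 6, the same pair, against 24.7%. Taking a call of any rank in at least 1 replicate reached 6 of 6 members, against 55.3% of genes. Replicates 1, 2 and 3 had strong calls at 4, 2 and 3 members, against 17.3%, 17.3% and 18.3% of protein-coding genes. They had calls of any rank at 6, 2 and 5 members, against 42.2%, 35.8% and 40.7%. Replicate 2 listed the fewest members in both counts. Its median signal was 14.95 against 20.01 and 20.61, and the part of this in the missing calls was not tested. Without replicate 2, calls of any rank were at 5 of 6 members in both others, against 32.9% of protein-coding genes. The 5 include Hsp67Bc, whose replicate 3 call is nearer to the start of CG4456. Read depth is unknown, so a missing call shows only that none was listed within 500 bp of a start. At Hsp22, replicate 2 did list a strong call (84.0, rank 1472), but its summit was 517 bp from the nearest start.

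**Figure D3:**
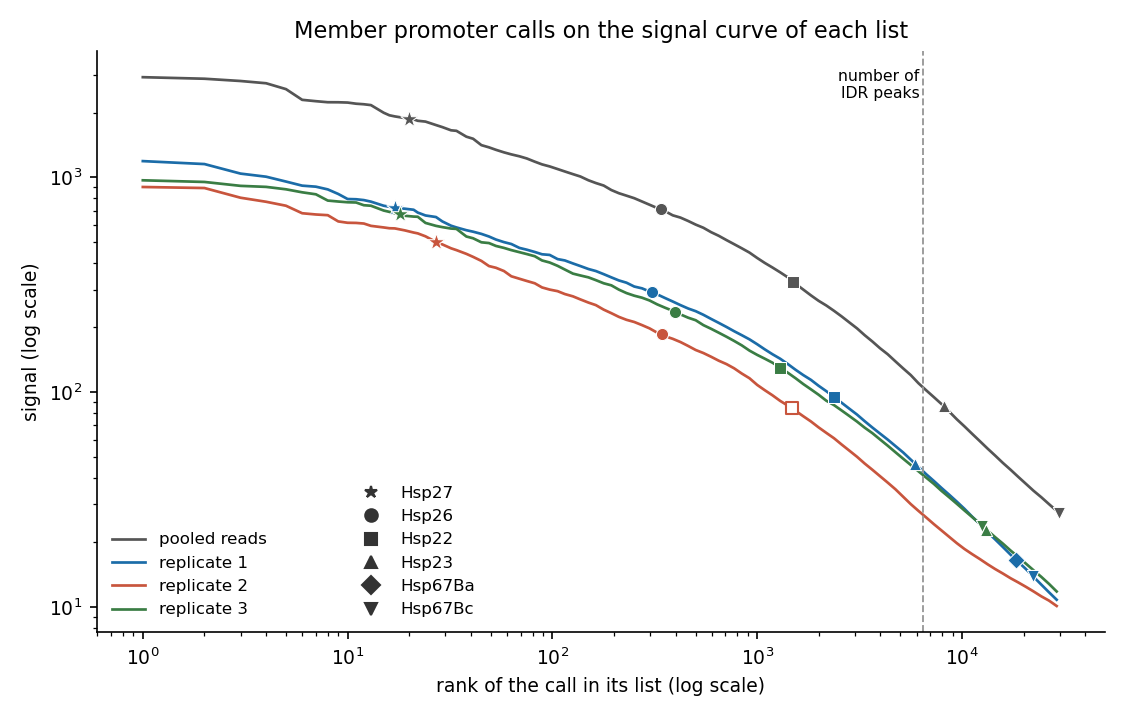
Signal against rank for the pooled list and each replicate (both axes log), with the strongest call at each member marked by symbol. The dashed line is the number of IDR peaks, and the open square is the replicate 2 call overlapping the Hsp22 peak. Hsp27 sits at ranks 17 to 27 of every list, Hsp26 at 305 to 395, and Hsp67Ba and Hsp67Bc lie beyond the dashed line.

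The sequences were searched on both strands, from 250 bp before to 50 bp after each start. A match to 2 heat shock units (GAANNTTC or TTCNNGAA) was in 4 of 6 members, against 19.9% of protein-coding genes, and was missing from Hsp27 and Hsp67Ba. GAGAG was in Hsp22, Hsp26 and Hsp23, 3 of 6, against 36.2%. TATAAA was in 5 of 6, all but Hsp67Ba, against 51.2%, and those 5 genes each had a match centred 25 or 26 bp before a start. The 3-unit element (a 2-unit match followed by NNGAA or NNTTC so that the units keep alternating), the nuclear receptor site AGGTCA and the ecdysone element of the Hsp27 type (GGTTCA, 1 base, then TGNACT) were in none of the 6, against 0.566%, 7.52% and 0.0501% of genes. A 3-unit match always contains 2-unit matches. In 300 bp windows around IDR summits the shares were 14.6% for 2 heat shock units, 35.1% for GAGAG and 47.3% for TATAAA. For the 3-unit element, AGGTCA and the ecdysone element they were 0.464%, 5.70% and 0.0309%. Each summit has 1 window, while a gene counts when any of its starts has a match, so the shares of summits and genes are not directly comparable. A match is a description of letters and not evidence of a bound factor.

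The matches fell differently within the 3 peaks. The Hsp26 peak held 6 overlapping or neighbouring GAGAG matches, 2 matches to 2 heat shock units and 2 overlapping matches to TATAAA. The nearest heat shock match was centred 20 bp upstream of the summit and the nearest GAGAG 38 bp downstream of it. The Hsp27 peak held 3 GAGAG, 1 match to 2 heat shock units and 1 TATAAA. All were over 100 bp from the summit, at 116 bp or more upstream for the first kinds and 127 bp downstream for TATAAA. The Hsp22 peak, 135 bp wide in the IDR set, held none of the 6 sequences. The wider intervals called there in the replicates did hold some. Those of replicates 1 and 3 each had 8 GAGAG, 1 AGGTCA and 1 TATAAA, and that of replicate 2 had 1 TATAAA. The 500 bp before the downstream Hsp22 start held 12 GAGAG matches, and the nearest was centred 100 bp beyond the summit, outside the IDR interval. Among the members without an IDR peak, Hsp23 had 4 matches to 2 heat shock units within 500 bp upstream. Of the 4 at Hsp23, 2 overlap each other and are parts of the same 3-unit match. Among the members with an IDR peak, Hsp27 had 1 such match. Hsp26 had 4 from its outer start and 5 from its inner one, and Hsp22 had 1 from its upstream start and 2 from its downstream one. Hsp67Ba had no match to any of the 6 sequences within 500 bp upstream.

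Certain named elements lie outside the peaks and are printed with their flanks for that reason. The ecdysone element of Hsp27 is chr3L:9383510-9383534 on the plus strand, centred 541 bp upstream of the start and 388 bp upstream of the summit. The 3-unit element of Hsp23 is chr3L:9381471-9381495 on the plus strand, centred 399 bp upstream of the start. A 2-unit element of Hsp22 is chr3L:9373902-9373929 on the plus strand, centred 84 bp upstream of the downstream start and 351 bp from the summit. Capitals mark the match.
Hsp27 ecdysone element: gacaagGGTTCAATGCACTtgtcca
Hsp23 heat shock element: agtctcGAAGTTTCGCGAAtttact
Hsp22 heat shock element: agggcgaaGAAAATTCgagagagtgccg
The Hsp27-type pattern was in 12 of 13968 genes when the window was widened to 500 bp before the start, where the Hsp27 match still falls outside. The pattern is long and is the Hsp27 type itself. Neither its low count nor its match at Hsp27 is therefore a result about ecdysone elements in general.

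**Figure D4:**
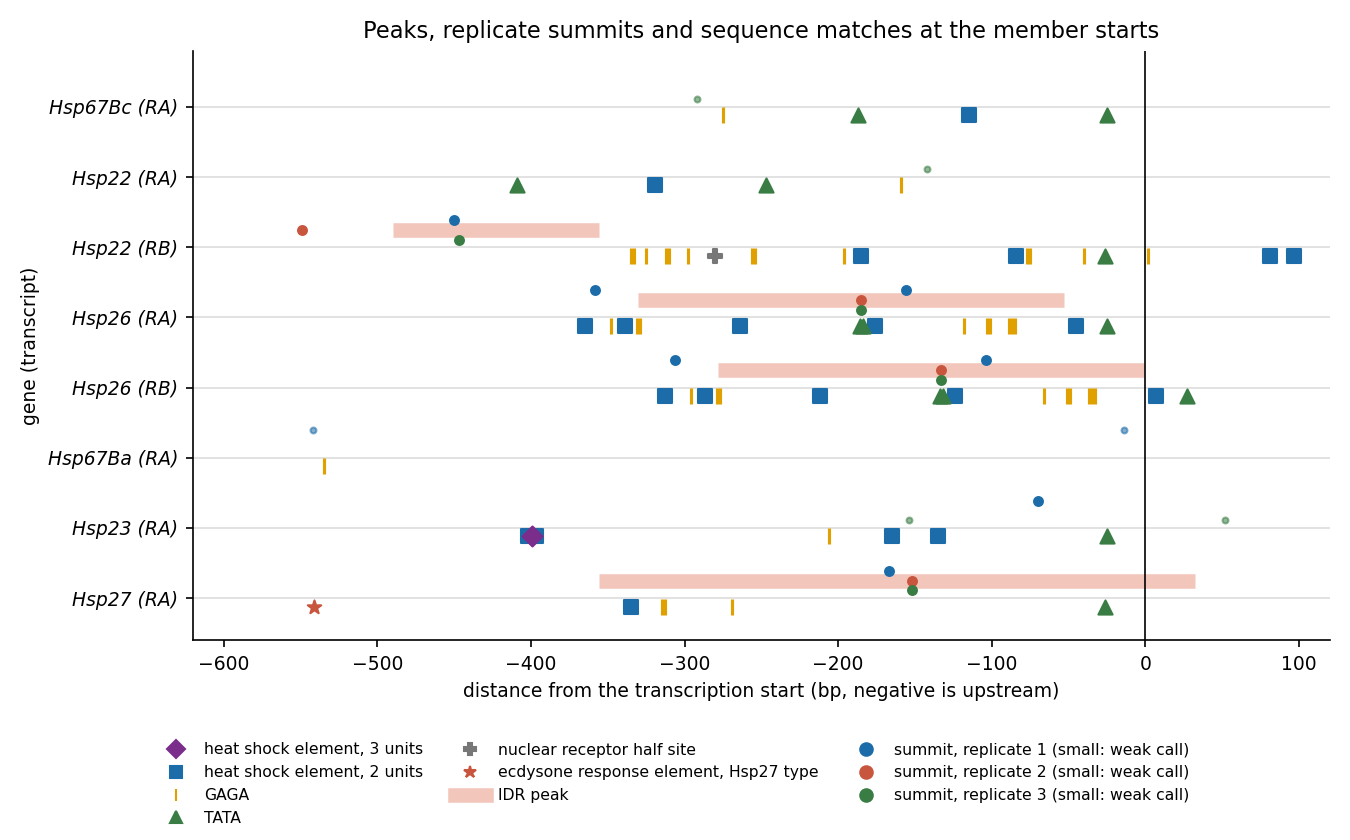
Positions of sequence matches (lower symbols), IDR peaks (bars) and replicate summits (dots) relative to each annotated start of the members, in bp along the strand of the gene. Small faint dots are calls outside the 6469 strongest. The Hsp27 summits lie 152 to 167 bp upstream in a stretch without matches, while the Hsp26 summits lie among them.

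The other genes with a start in the region had no IDR peak there. The divergent pair Klp67A, a mitotic kinesin, and CG4452 shared a pooled call of 65.8 (rank 10862). In replicates 2 and 3 the strongest call, 23.3 and 32.0, was again the same for both genes. In replicate 1 it was 16.8 at Klp67A and 22.8 at CG4452. Fdx1, a mitochondrial ferredoxin, had 33.3, 12.4 and 16.8 in replicates 1 to 3. The call counted for asRNA:CR43481 in the pooled list (79.1) and in replicate 1 (48.6) is the weaker upstream call of Hsp26 described above. In replicates 2 and 3 that gene had 17.8 and 28.7. CG4456 was called by the same weak calls as Hsp67Bc. CG4461, itself a predicted small heat shock gene between Hsp22 and Hsp26, and the pseudogenes CR43482 and CR43483 had no call at a start in any list.

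Heat shock genes elsewhere were mixed. Of 6 small heat shock genes that are not members, among them CG4461, 0 had an IDR peak at a start. Of 20 chaperones of the HSP70, HSP90 and HSP60 families, 4 did (20.0%), and of 13 regulator and co-chaperone genes, 4 did (30.8%), against the 17.0% of all protein-coding genes. The strongest were Hsc70-5, the mitochondrial HSP70 (rank 471, 203 ± 25 over the replicates, SD, n = 3), and Hsp83, the cytosolic HSP90 (rank 525, 191 ± 106). Gp93, the HSP90 of the endoplasmic reticulum, was at rank 1868 (81.5 ± 17.6) and Hsp60A, the mitochondrial chaperonin, at rank 6339 (30.7 ± 1.58). Among the co-chaperones and regulators were mrj (rank 766) and DnaJ-H (rank 844), which encode J-domain proteins. The others were the heat-induced nuclear RNA gene lncRNA:Hsromega (rank 836) and stv, which encodes Starvin (rank 3589). All 8 ranked below Hsp27 and Hsp26, and 5 of them ranked above Hsp22 at 1492. The lists were compared by these counts only.

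The protein-coding genes whose peak was most like that of Hsp27 were sought as the smallest distance in log2 signal over the 3 replicates. The nearest was Gapdh2, a glycolytic enzyme gene, with 729, 493 and 589 (distance 0.197, IDR rank 25). Next came Art3, an arginine methyltransferase gene, and mRpS10, a mitochondrial ribosomal protein gene. They share 1 peak between them, with 623, 537 and 659 (distance 0.233, rank 24). The summits lay 150 bp upstream of Gapdh2 and 124 and 133 bp upstream of Art3 and mRpS10. The 3 genes were within 96 signal units of Hsp27 in every replicate, which follows from choosing them by this distance.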

How the data were processed

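ChIP-seq peak lists of 3 biological replicates of 1 group were analysed. Per the notes deposited with the files, the authors deposited for build dm6 a relaxed list of calls for each replicate and for the pooled reads, and the optimal set of peaks that passed the IDR threshold. Each interval has a deposited signal value, a −log10 significance value and a summit. The 6469 IDR peaks equal the top 6469 pooled calls and therefore have no replicates of their own. The peak caller, aligner, IDR threshold, control correction and depth were not given in the sources used here, so no counting error is attached and SDs may include differences in scale. The dm3 lists were not used.

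Ranks are by signal within a list, and coordinates are 1-based. Genes and starts are from Ensembl release 115, and sequence is from the RefSeq Release 6 assembly. A call was at a start when its summit lay within 500 bp of any annotated start, and a replicate call was matched to a peak by overlap. Strong calls are the 6469 strongest of a list. No significance test was run. Alternatives changed the start window, the starts used, the strength of peaks, the matching rule and the replicates included. Functions for start and motif matching were tested on simulated data. Python 3.11.15, numpy 2.4.6, pandas 2.3.3 and matplotlib 3.10.9 were used. Members, lists and alternatives were chosen with earlier results of these data known. Named are the members, other genes with a start in the region, list genes with an IDR peak, and the 3 genes nearest to Hsp27 in signal.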

Additional observations from a re-analysis of the deposited data

How the results depend on the processing

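Of 46 recomputed values, 39 stayed within 1.5 times the reported count or within 1 SD, and 7 did not. The mean of any 2 of 3 replicates always lies within 1 SD of the mean of all 3. The signal means with 1 replicate left out therefore could not fail this rule. A change between 2 and 3 members also passes it, so the 39 are not a measure of stability. Members with a call of any rank in every replicate rose from 2 to 5 with a start window of 1000 bp, where the share of all protein-coding genes rose from 24.7% to 31.6%. In replicate 2, the call that this window added for Hsp67Bc was the one overlapping the Hsp22 peak (84.0, rank 1472). The call it added for Hsp23 lay 887 bp downstream of the start, in intergenic sequence, at rank 28931. Within 500 bp, members with a call of any rank in every replicate ranged from 2 to 5 when 1 replicate was left out. The share of genes was then 27.1% to 32.9%. The 5, reached without replicate 2, were all but Hsp67Ba. Members with a strong call in every replicate ranged from 2 to 3 with 1 replicate left out, Hsp22 being added without replicate 2 (13.7% to 14.3% of genes). Mean signal with 1 replicate left out was 587 to 697 for Hsp27, 211 to 263 for Hsp26 and 89.4 to 112 for Hsp22. In the stronger part of the IDR set 1477 protein-coding genes had a peak at a start against 2373, by its construction from fewer peaks, and all 3 member peaks remained. Other heat shock genes with a peak fell from 8 to 5 of 39 with a window of 250 bp. The share of all protein-coding genes fell from 17.0% to 12.4% with the same change. With 500 bp before the start, GAGAG was in 5 members against 3 (50.2% of genes), the 3-unit heat shock element in 1 (Hsp23) against 0 (0.981%), and AGGTCA in 1 (Hsp22) against 0 (14.7%). No paired analysis was possible because there is 1 group, so no replicate numbers are shared between conditions. Ratios between peaks were taken within replicates.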

Other observations

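The cluster stands at the end of a long stretch without IDR peaks. The nearest IDR summit before that of Hsp22 on 3L was 164 kb away, and 19 protein-coding genes have starts in between. Of 6463 gaps between neighbouring IDR summits on the same chromosome, 76 (1.18%) were as long or longer, and the median gap was 5.86 kb. On the other side the next IDR summit was 15.4 kb beyond that of Hsp27. The stretch was noticed after its values were seen. The relaxed lists were not empty there, with calls 5963 bp before the region in the pooled list (rank 7802) and in replicate 3 (rank 7008), and 5744 bp before it in replicate 1 (rank 11599). The nearest in replicate 2 was 17222 bp before it (rank 21017).

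The member peaks were narrower than most. The widths were 389 bp at Hsp27, 278 bp at Hsp26 and 135 bp at Hsp22, while 78.6% of IDR peaks had the common width of 436 bp. Among the 500 strongest IDR peaks 94.6% were narrower than that, with a median of 310 bp, so a narrow interval was usual at the rank of Hsp27 and Hsp26. In the replicates the interval at Hsp22 had the common width of the list, 420 bp in replicate 1 and 396 bp in replicates 2 and 3.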
